A study of Mus musculus with 10 samples.

Results

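Microglia and macrophages are the resident and recruited phagocytes of the brain, and they are followed here through 37 genes in the subventricular zone (SVZ) of mice after stroke. The genes were taken by name, and no measured value enters the rule apart from a filter on detection. The list was drawn up, however, with earlier results of these data known. Of the 37, 36 had at least 1 probe on the array, 30 passed the filter on dim signals (a detection p under 0.05 in at least 4 of the 9 mice), 6 stayed below it, and for Cd68 no probe carried the name in the annotation used. The 30 tested genes stand among 11376 named genes tested in all.

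Tissue from the SVZ, the neurogenic layer beside the lateral ventricle, was cut out by laser microdissection and measured on bead arrays. All mice were of the BL6 strain, were 8 weeks old and had an ischemic stroke in the striatum of 1 side of the brain. The design held 4 mice labelled Tlx overexpressing and 5 labelled wild type, Tlx being the orphan nuclear receptor encoded by Nr2e1 that maintains neural stem cells. The labels name neither the promoter behind the overexpression, nor the hemisphere taken, nor the time after stroke. The Tlx overexpressing mice are called 2995, 3155, 3157 and 3163 and the wild type mice c1, c2, 2989, 2996 and 3164, as in the labels. The names form 3 ranges whose meaning is not stated: 2989 to 2996 (1 Tlx overexpressing and 2 wild type mice), 3155 to 3164 (3 and 1) and c1 with c2 (wild type mice only).

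Under resting conditions microglia are kept alive by signals through the receptor Csf1r and carry a set of surface sensors, among them the fractalkine receptor Cx3cr1 and the purinergic receptors P2ry12 and P2ry13, which register neuronal and injury cues. After ischemia they, and the macrophages that enter from blood, take up debris and change this set. Sensor genes are then typically reduced, and genes of phagocytosis, Fc receptors and innate immune receptors raised. The 37 genes were therefore divided into 8 homeostatic genes, 12 activation genes and 17 genes shared by both states, the last ordered by role into signalling adaptors, lysosomal proteins, leukocyte surface proteins, transcription factors and actin regulators.

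Each array detected 20068 to 20590 of 45281 probes (44.3% to 45.5%). Mouse c1 was hybridised to 2 arrays, whose signals over the tested probes were closer in rank (Spearman's rho of 0.991) than those of any array with an array of another mouse (0.961 to 0.988). The probe for Nr2e1 read 5.43 ± 0.14 (SD, n = 4) in the Tlx overexpressing and 5.01 ± 0.19 (SD, n = 5) in the wild type mice, a difference that did not pass over all probes (adjusted p = 0.084), and such a probe need not see a transgene. Of 6 neuroblast genes of the SVZ, Dcx, Dlx1, Dlx2 and Sox11 were detected in all 9 mice, while Tubb3 and Cd24a stayed below the filter. Differences of the 4 tested are given with those of the other cell types. Signals are log2 brightness, comparable between mice for 1 probe but not between probes, and the number of mice limits the precision. In tissue of mixed cells, fewer microglia and less of a transcript per microglial cell cannot be told apart.

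No gene of the 30 tested passed the threshold for a genotype difference (an adjusted p under 0.05), whereas 0.941% of all tested probes did, 0.539% upward and 0.402% downward. At an unadjusted p under 0.05 there were 12 of the 30 (40%), 11 of them upward and 1 downward, where 17.6% of all tested probes lay under that value, 8.39% higher and 9.2% lower. The direction was upward for 21 of the 30, against 50.9% of all tested probes. The median log2 change over the 30 genes was 0.11, and over all tested probes it was 0.0038. These are small steps: the median size of the genotype difference was 0.16, and the median SD between mice of 1 genotype was also 0.16. The 95% intervals of the differences ran as far as 0.72 upward, for Fcgr3, and -0.88 downward, for Ctsz, so the data leave room for sizable changes of single genes.

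**Figure D1:**
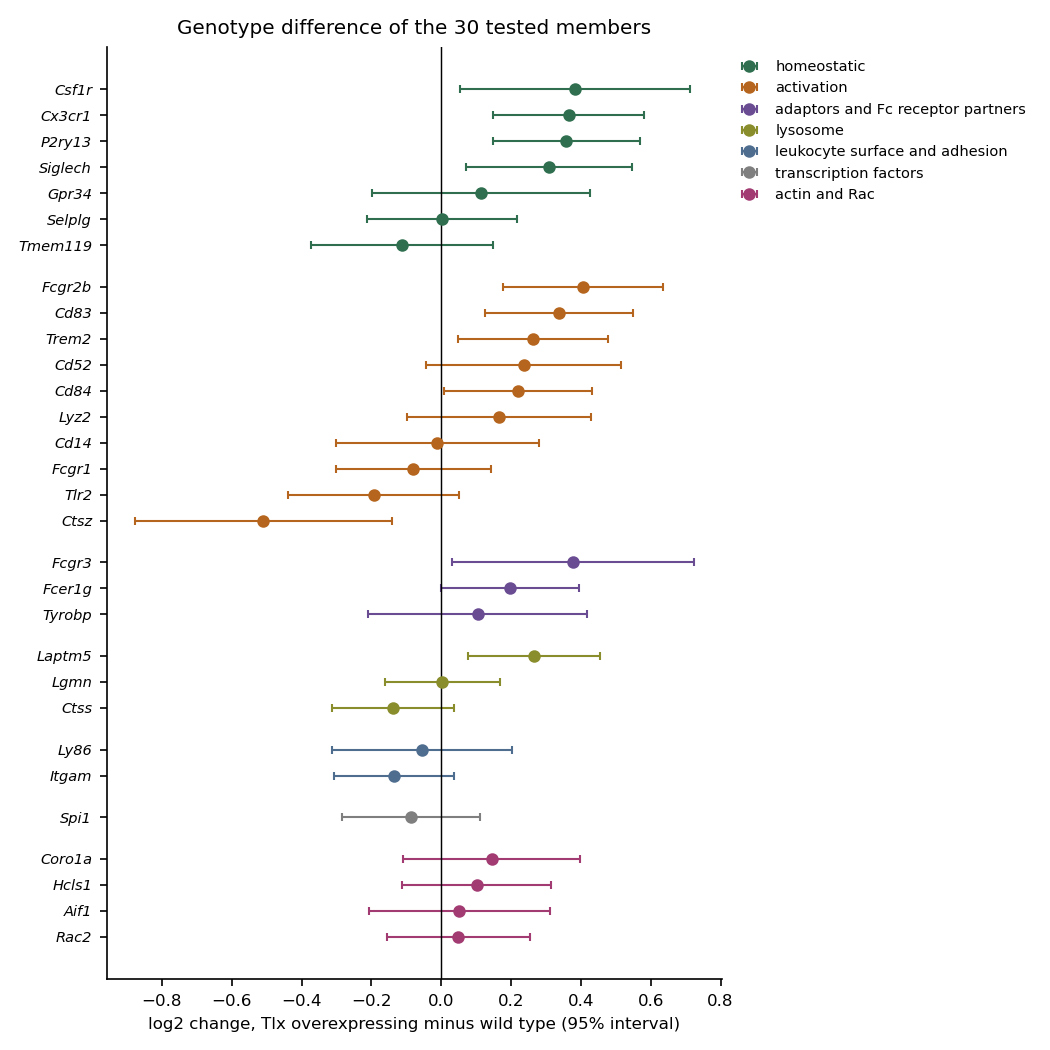
Log2 change (horizontal axis, Tlx overexpressing minus wild type) of each of the 30 tested genes, by role (colour). Points are differences of means over 4 and 5 mice and bars are 95% intervals of the limma fit. Most points lie right of 0, from 0.41 for Fcgr2b down to -0.51 for Ctsz, and 12 intervals leave 0 out, although no gene passed after adjustment over all probes.

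Among the genes with the smallest p-values were Fcgr2b, the inhibitory receptor for IgG; P2ry13, a receptor for ADP; Cx3cr1; and Laptm5, a lysosomal membrane protein of blood-derived cells. Their upstream sequences are printed because these are the genes nearest to the threshold that have 1 start site in RefSeq's promoter table (GRCm38.p6), and because microglial genes share the transcription factor Spi1 (PU.1). Each line holds the 250 bases before the start site, 5′ to 3′ on the strand of the gene. Capitals mark matches, on either strand, to GAGGAA, the core of many PU.1 sites, or to the joint motif of PU.1 with Irf8 or Irf4, taken as GGAA followed, after 2 bases of any kind, by GAAA. The places are chr1:170976072-170976321 (minus strand) for Fcgr2b, chr3:59210883-59211132 (minus) for P2ry13, chr9:120068297-120068546 (minus) for Cx3cr1 and chr4:130913066-130913315 (plus) for Laptm5.
Fcgr2b: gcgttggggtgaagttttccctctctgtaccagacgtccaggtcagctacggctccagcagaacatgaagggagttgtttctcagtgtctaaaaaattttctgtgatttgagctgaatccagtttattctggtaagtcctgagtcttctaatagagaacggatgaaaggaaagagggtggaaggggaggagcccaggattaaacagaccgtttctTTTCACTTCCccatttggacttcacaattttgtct
P2ry13: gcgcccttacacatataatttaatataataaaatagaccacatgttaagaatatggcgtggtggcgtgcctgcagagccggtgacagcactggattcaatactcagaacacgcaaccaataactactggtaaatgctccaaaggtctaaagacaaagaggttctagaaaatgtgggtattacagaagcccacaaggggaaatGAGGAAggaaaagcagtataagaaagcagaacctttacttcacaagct
Cx3cr1: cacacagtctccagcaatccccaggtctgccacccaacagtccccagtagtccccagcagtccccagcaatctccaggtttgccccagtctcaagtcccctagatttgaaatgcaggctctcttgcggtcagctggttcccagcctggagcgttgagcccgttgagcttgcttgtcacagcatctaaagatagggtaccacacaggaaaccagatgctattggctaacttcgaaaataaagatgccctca
Laptm5: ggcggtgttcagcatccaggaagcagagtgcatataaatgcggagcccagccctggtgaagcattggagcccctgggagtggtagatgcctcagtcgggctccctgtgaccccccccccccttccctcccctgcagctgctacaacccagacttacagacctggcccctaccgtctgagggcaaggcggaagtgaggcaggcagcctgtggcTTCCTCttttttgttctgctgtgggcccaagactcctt

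Fcgr2b held the joint motif, P2ry13 and Laptm5 the core, and Cx3cr1 neither. Promoters of 27 of the 37 genes were in the table. GAGGAA occurred upstream of 11 of these 27 genes, in 37.5% of their 32 start sites, against 23.3% of all 32851 start sites. The joint motif occurred upstream of Fcgr2b alone among them, against 2.3% of all start sites, and the longer core GAGGAAGT, held by 2.44% of all start sites, was upstream of none. GAGGAAGT contains GAGGAA, so these counts overlap. A match describes these letters and does not show binding.

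The homeostatic genes were higher on balance in the Tlx overexpressing mice, though none passed. Of 7 tested, 6 had a positive change, and 4 of these reached an unadjusted p under 0.05. The median log2 change of the 7 was 0.31. Csf1r counts among the positive genes, and in this median, by the slightly brighter of its probes. Its other kept probe gave -0.056. Cx3cr1, which binds the neuronal chemokine fractalkine, had log2 signals of 8.41, 8.78, 8.43 and 8.30 in mice 2995, 3155, 3157 and 3163, and of 8.05, 8.12, 8.24, 8.09 and 8.07 in c1, c2, 2989, 2996 and 3164. Every Tlx overexpressing mouse lay above every wild type mouse, which held in this direction for 3.24% of all tested probes (and in the other for 3.04%) and for no other gene of the 30. The difference was 0.37 (SE 0.10), or 1.29-fold, with an adjusted p of 0.093. Within the first range of mouse names (2995 against 2989 and 2996) the difference was 0.24, and within the second (3155, 3157 and 3163 against 3164) it was 0.43.

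P2ry13 had 7.70, 8.08, 7.87 and 8.01 in the Tlx overexpressing mice (in the same order as before) against 7.43, 7.66, 7.50, 7.50 and 7.70 in the wild type mice. The groups met only at 2995 and 3164, the lowest of the one and the highest of the other. The difference was 0.36 (SE 0.097, adjusted p = 0.090), with 0.20 and 0.28 within the 2 ranges of mouse names. Siglech, a sialic acid-binding lectin of microglia, read 6.37, 6.60, 6.28 and 6.29 against 5.88, 6.04, 6.36, 6.15 and 5.95. Its difference was 0.31 (SE 0.11, adjusted p = 0.17), with wild type mouse 2989 at the level of the Tlx overexpressing mice, and a further probe gave 0.22. Csf1r, the receptor for the survival factors Csf1 and Il34, read 5.83, 6.20, 5.95 and 5.70 against 5.68, 5.45, 5.86, 5.04 and 5.64. That gave 0.38 (SE 0.15, adjusted p = 0.21), but another Csf1r probe of like brightness gave -0.06, so the direction for this gene is not settled.

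The other homeostatic genes did not share this direction clearly. Tmem119, a membrane protein used to tell microglia from other macrophages, read 6.39, 6.47, 6.25 and 6.38 in the Tlx overexpressing mice and 6.28, 6.63, 6.79, 6.57 and 6.17 in the wild type mice. The Tlx overexpressing values lay inside the wild type range, and the difference was -0.11 (95% interval -0.37 to 0.15). Selplg, the ligand of P-selectin, differed by 0.0019 (-0.21 to 0.22), and Gpr34, a receptor for lysophosphatidylserine, by 0.11 (-0.20 to 0.43). P2ry12, the sensor that directs microglial processes to ATP and ADP, stayed below the filter: its brighter probe was detected in 2 of 4 Tlx overexpressing and 1 of 5 wild type mice, and its other probe in none. The brighter probe read 4.44, 4.62, 4.48 and 4.45 against 4.42, 4.41, 4.32, 4.52 and 4.40, and the groups overlapped. Whether P2ry12 moved with P2ry13 could therefore not be seen with these probes.

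**Figure D2:**
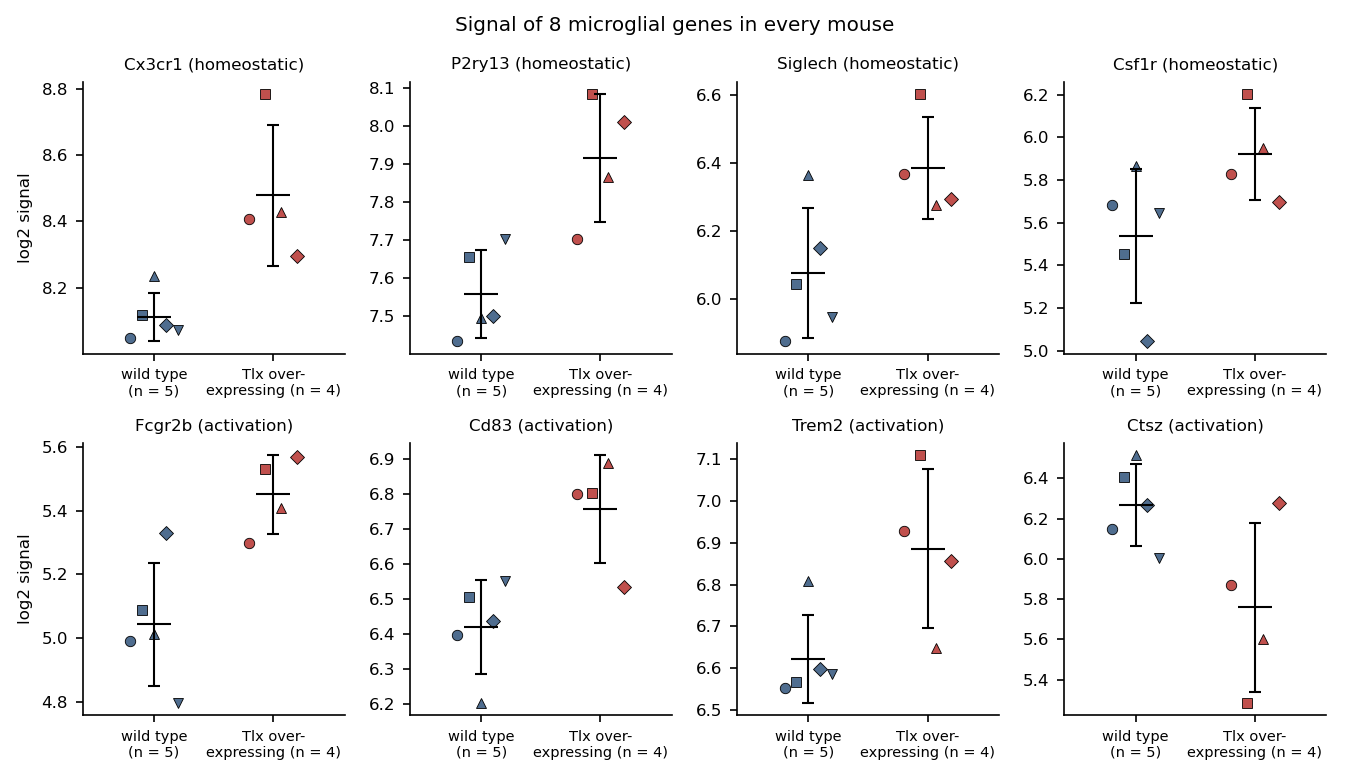
Log2 signal (vertical axis) of 4 homeostatic genes (upper row) and 4 activation genes (lower row) in every mouse, with 1 symbol a mouse, and means with SD as bars (n = 5 wild type, n = 4 Tlx overexpressing). For Cx3cr1 the groups do not overlap; for the other 7 genes at least 1 mouse lies within the range of the other genotype.

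Activation genes went both ways. Of 10 tested, 6 had a positive and 4 a negative change, 5 had an unadjusted p under 0.05, and the median log2 change was 0.19. Fcgr2b had the smallest p of the 30 genes. Its log2 signals were 5.30, 5.53, 5.41 and 5.57 in the Tlx overexpressing and 4.99, 5.09, 5.01, 5.33 and 4.80 in the wild type mice. Only wild type mouse 2996 reached into the other group. The 2 arrays of c1 read 4.78 and 5.21, further apart (0.43) than the genotype means. Of the 5 Fcgr2b probes only this 1 was kept. The difference was 0.41 (SE 0.11, adjusted p = 0.083), or 1.32-fold, with 0.13 within the first range of mouse names and 0.70 within the second. It passed when mouse 2995 was left out (0.46, adjusted p = 0.0496) and with array weights (0.43, adjusted p = 0.037), and P2ry13 passed without 2995 as well (0.43, adjusted p = 0.033).

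Cd83, a surface protein of activated antigen-presenting cells, read 6.80, 6.81, 6.89 and 6.53 against 6.40, 6.51, 6.20, 6.44 and 6.55. Mouse 3163 stayed among the wild type values and the other 3 lay above them all; the difference was 0.34 (SE 0.098, adjusted p = 0.11). Trem2, the lipid-sensing receptor that drives phagocytosis, read 6.93, 7.11, 6.65 and 6.86 against 6.55, 6.57, 6.81, 6.60 and 6.59, a difference of 0.26 (SE 0.099, adjusted p = 0.19). Here mouse 3157 was close to most wild type mice and 2989 was close to the others. Cd84, a self-binding receptor of the SLAM family, read 5.41, 5.79, 5.57 and 5.34 against 5.28, 5.28, 5.30, 5.43 and 5.24, which gave 0.22 (SE 0.098, adjusted p = 0.27). Cd52, a small glycoprotein of leukocytes (0.24, adjusted p = 0.36), and Lyz2, the lysozyme of macrophages (0.17, adjusted p = 0.50), did not pass either.

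Ctsz, a lysosomal carboxypeptidase, went the other way and had the largest change of the 30 genes in size. It read 5.87, 5.29, 5.60 and 6.28 in the Tlx overexpressing mice and 6.15, 6.41, 6.52, 6.27 and 6.003 in the wild type mice. Mice 2995, 3155 and 3157 lay below all wild type mice, and mouse 3163 lay among them. The difference was -0.51 (SE 0.17, adjusted p = 0.14), and a second Ctsz probe gave -0.27. Its spread was also the widest within a genotype (SD 0.42 in the Tlx overexpressing mice).

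Tlr2, which senses bacterial lipoproteins and products of injury, differed by -0.19 (adjusted p = 0.40), with its highest values in wild type mouse c1 (6.63) and Tlx overexpressing mouse 2995 (6.35). The same 2 mice were the highest for S100a8, a gene of neutrophils and inflamed myeloid cells, with 6.25 and 6.18 where the others read 4.32 to 5.68. Whether neutrophil RNA had a part in the Tlr2 values was not tested. Cd14, the co-receptor for lipopolysaccharide (-0.011), and Fcgr1, the high-affinity IgG receptor (-0.080), differed by less than their SE of 0.13 and 0.10. Fcgr1 was dim, with means of 4.65 and 4.73. Cst7, a cystatin raised in disease-associated microglia, stayed below the filter, being detected in 2 of 4 Tlx overexpressing mice and in no wild type mouse. It read 4.34, 4.43, 4.74 and 4.62 against 4.29, 4.45, 4.37, 4.32 and 4.26, with 3157 and 3163 above the other mice.

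Among the shared genes, the signalling adaptors and their Fc receptor were higher in mean. Tyrobp (DAP12), which carries the signal of Trem2, differed by 0.10 (95% interval -0.21 to 0.42). Fcer1g, the common gamma chain of Fc receptors, read 8.64, 8.77, 8.81 and 8.79 against 8.63, 8.47, 8.72, 8.62 and 8.34, a difference of 0.20 (SE 0.091, adjusted p = 0.28). Fcgr3, an activating IgG receptor that pairs with Fcer1g, read 5.95, 6.22, 6.01 and 6.46 against 5.70, 5.53, 6.11, 6.15 and 5.44, which gave 0.38 (SE 0.16, adjusted p = 0.24). For Fcgr3 the ranges of mouse names went opposite ways, with -0.18 among mice 2995, 2989 and 2996 and 0.79 among the 4 mice 3155 to 3164, where 3164, the lowest mouse of all, is the only wild type animal.

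Of the lysosomal proteins, Laptm5 read 9.87, 9.82, 9.64 and 9.84 against 9.40, 9.49, 9.72, 9.52 and 9.49. Mouse 3157 and wild type mouse 2989 exchanged places and the other 7 mice kept apart. The difference was 0.27 (SE 0.087, adjusted p = 0.14), alike within both ranges of mouse names (0.25 and 0.27). Lgmn, an asparaginyl endopeptidase, had the narrowest interval of the 30 genes, with a difference of 0.0029 (-0.16 to 0.17). Ctss, cathepsin S, read 4.55, 4.41, 4.36 and 4.48 against 4.65, 4.50, 4.71, 4.57 and 4.51, close to background, with -0.14 (adjusted p = 0.39) and detection in 2 of 4 and 5 of 5 mice.

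Several defining leukocyte genes could hardly be read in this tissue. Ptprc (CD45) had 4 probes, Cd53 had 2 and Cd48 had 1, none detected in any mouse by the highest detection p of its arrays, and neither was Irf8, the partner of PU.1. Itgam, the CD11b chain of complement receptor 3, read 4.38, 4.54, 4.46 and 4.39 against 4.50, 4.71, 4.48, 4.57 and 4.63. It was detected in 1 of 4 Tlx overexpressing and 4 of 5 wild type mice, so it passed the filter through the wild type group. Its difference was -0.13 (adjusted p = 0.40). Spi1 itself was dim, with a difference of -0.087 and detection in 7 mice. Ly86 (MD-1), which pairs with the Toll-like receptor homologue RP105, was detected in all mice and differed by -0.055 (-0.31 to 0.20). Small changes of dim probes, here those of Itgam and Spi1 but not of Ly86, are compressed by the offset in the processing. Differences near 0 of such dim probes carry little weight.

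Among the actin regulators, Aif1 (Iba1), the usual stain for microglia, read 6.99, 6.87, 6.93 and 7.04 in the Tlx overexpressing and 6.61, 6.87, 7.17, 7.17 and 6.72 in the wild type mice. The Tlx overexpressing values fell in the middle of the wild type range, the difference was 0.052 (-0.21 to 0.31), and a second probe gave 0.054. Coro1a, an actin-binding protein of leukocytes, read 8.48, 8.90, 8.58 and 8.52 against 8.48, 8.26, 8.78, 8.45 and 8.40, and the groups overlapped (0.15, adjusted p = 0.55). Its 4 kept probes gave changes between -0.16 and 0.34, of which 2 were positive and none passed. Hcls1, a substrate of leukocyte tyrosine kinases (0.10), and Rac2, the GTPase of the phagocyte oxidase (0.049), differed by no more than about their SE of 0.099 and 0.095. Both were dim, with means of 4.95 and 4.85 for Hcls1 and 4.48 and 4.43 for Rac2. Rac2 was detected in only 4 mice.

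A level per mouse was formed for the homeostatic and the activation genes as the mean, over the tested genes, of the log2 signal centred on the 9 mice. The homeostatic level was 0.055, 0.27, 0.039 and 0.081 in mice 2995, 3155, 3157 and 3163, and -0.21, -0.13, 0.12, -0.09 and -0.13 in c1, c2, 2989, 2996 and 3164. All Tlx overexpressing mice were above 0 and all wild type mice but 2989 below it. The means were 0.11 ± 0.11 (SD, n = 4) and -0.09 ± 0.12 (SD, n = 5). The activation level was 0.085, 0.044, -0.0094 and 0.066 against 0.021, -0.00061, -0.021, 0.0067 and -0.19. Apart from the low value of wild type mouse 3164 this mean over genes barely varied, with means of 0.046 ± 0.041 and -0.037 ± 0.087. It averages 6 genes with a positive and 4 with a negative change, from 0.41 for Fcgr2b to -0.51 for Ctsz. A flat level therefore does not mean that the single activation genes were unchanged.

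The contrast asked of these lists is the homeostatic minus the activation level in each mouse. It was -0.029, 0.23, 0.049 and 0.015 in the Tlx overexpressing mice and -0.23, -0.13, 0.14, -0.097 and 0.061 in the wild type mice. Mouse 3155 stood highest and c1 lowest, but wild type mice 2989 and 3164 ranked next after 3155, so the genotypes overlapped widely. The mean contrast was 0.066 ± 0.11 (SD, n = 4) against -0.053 ± 0.15 (SD, n = 5). Their difference of 0.12 was smaller than the SD between mice of 1 genotype, 0.14, so a shift of balance between the 2 lists was not resolved. With the range of mouse names as a block it was -0.0038, and within the ranges it was -0.050 (2995 against 2989 and 2996) and 0.037 (3155, 3157 and 3163 against 3164). No test was made of these levels, since the lists were chosen with earlier results known.

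**Figure D3:**
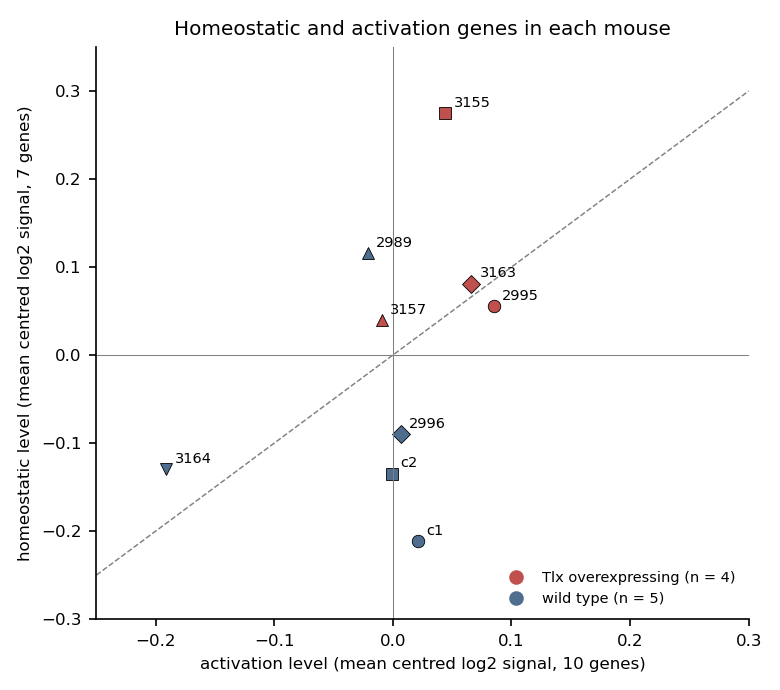
Homeostatic level (vertical axis, 7 genes) against activation level (horizontal axis, 10 genes) of each mouse, both as mean centred log2 signal; the dashed line marks equal levels. The Tlx overexpressing mice lie between 0.039 and 0.27 on the homeostatic axis and the wild type mice between -0.21 and 0.12, while on the activation axis all mice but 3164 (-0.19) lie between -0.021 and 0.085.

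Individual mice differed from each other as much as the genotypes did. Wild type mouse 3164 was the lowest mouse for 9 of the 30 genes, among them Cd52, Lyz2, Fcgr2b, Fcer1g and Fcgr3. Wild type mouse c1 was lowest for 7, among them Cx3cr1, P2ry13, Gpr34, Siglech, Trem2 and Aif1. Wild type mouse 2989 was highest for 8, including Tmem119, Selplg, Tyrobp and Ctsz, and Tlx overexpressing mouse 3155 for 7, including Cx3cr1, Csf1r, P2ry13, Siglech and Trem2. The highest value was in a Tlx overexpressing mouse for 15 genes and in a wild type mouse for 15, whereas the lowest was in a wild type mouse for 24 of the 30. The SD was larger among wild type mice for 21 of the 30 genes. Between the 2 arrays of c1 the 30 genes differed by a median of 0.092 and by at most 0.44, for Tyrobp, and for 11 genes this technical difference exceeded that between the genotypes.

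Within both ranges of mouse names that hold both genotypes, 13 of the 30 genes were positive and 4 negative, and 13 had opposite signs. Those positive in both included Cx3cr1, P2ry13, Siglech, Csf1r (by its brightest probe only), Fcgr2b, Cd83, Trem2 and Laptm5. Among mice 2995, 2989 and 2996, 15 of the 30 genes were positive, and among mice 3155, 3157, 3163 and 3164, 24 were. The second range compares 3 mice with the single wild type mouse 3164.

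Choroid plexus RNA varied among the mice too. This epithelium hangs in the ventricle beside the SVZ. Of its 12 tested marker genes 2 passed, Calml4 and Steap1, where 0.402% of all tested probes passed downward. All 12 were lower in the Tlx overexpressing mice (median change -0.82). Their level per mouse ran from -1.07 to 0.19 in the Tlx overexpressing and from 0.06 to 0.68 in the wild type mice, and as the sum of 12 log2 signals from 98.8 to 113.9 and from 112.3 to 119.8. Mouse 3155, with the lowest choroid plexus level, had the highest homeostatic level, and c1, with the highest, had the lowest. Activation levels of these 2 mice lay close together, at 0.044 and 0.021. Mice 3157, 3163 and 2995, with choroid plexus levels of -0.54, -0.34 and 0.19, had homeostatic levels of 0.039, 0.081 and 0.055. Wild type mice 2989, 3164, 2996 and c2, with 0.06, 0.28, 0.31 and 0.42, had 0.12, -0.13, -0.09 and -0.13. When the fit held this level as a covariate, the difference in homeostatic level was 0.022 in place of 0.20, that in activation level was 0.13 in place of 0.083, and their contrast turned from 0.12 to -0.11. Cx3cr1 was then 0.13 (adjusted p = 0.92), P2ry13 0.17 (0.90), Fcgr2b 0.31 (0.86) and Cd83 0.35 (0.82), and none passed in this fit. The covariate is itself lower in the Tlx overexpressing mice, so the part of tissue makeup and the part of genotype cannot be told apart.

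Markers of other cells of the SVZ were compared as well. All 4 tested neuroblast genes had a positive change by their brightest probe (median 0.44). Dcx, a microtubule protein of migrating neuroblasts, passed (0.59, adjusted p = 0.038), where 0.539% of all tested probes passed upward. A second probe gave 0.27 for Dcx (adjusted p = 0.23), -0.10 for Dlx2 and 0.36 for Sox11, and none of these passed. By their brightest probes, Dcx and the transcription factor gene Dlx1 (0.45, adjusted p = 0.064) did not overlap between the genotypes. In this direction that held for 3.24% of all tested probes. The neuroblast level was 0.076 to 0.36 in the Tlx overexpressing and -0.29 to 0.11 in the wild type mice, and the sum of the 4 signals was 37.1 to 38.2 against 35.6 to 37.2. Both tested ependymal genes had a negative change and neither passed, although Foxj1, the regulator of motile cilia, did not overlap (-0.28, adjusted p = 0.12). In this direction the groups did not overlap for 3.04% of all tested probes. The ependymal level was -0.28 to 0.035 against -0.041 to 0.22, and the sum of the 2 signals was 16.7 to 17.3 against 17.2 to 17.7. The part of these cells in the microglial values was not tested.

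**Figure D4:**
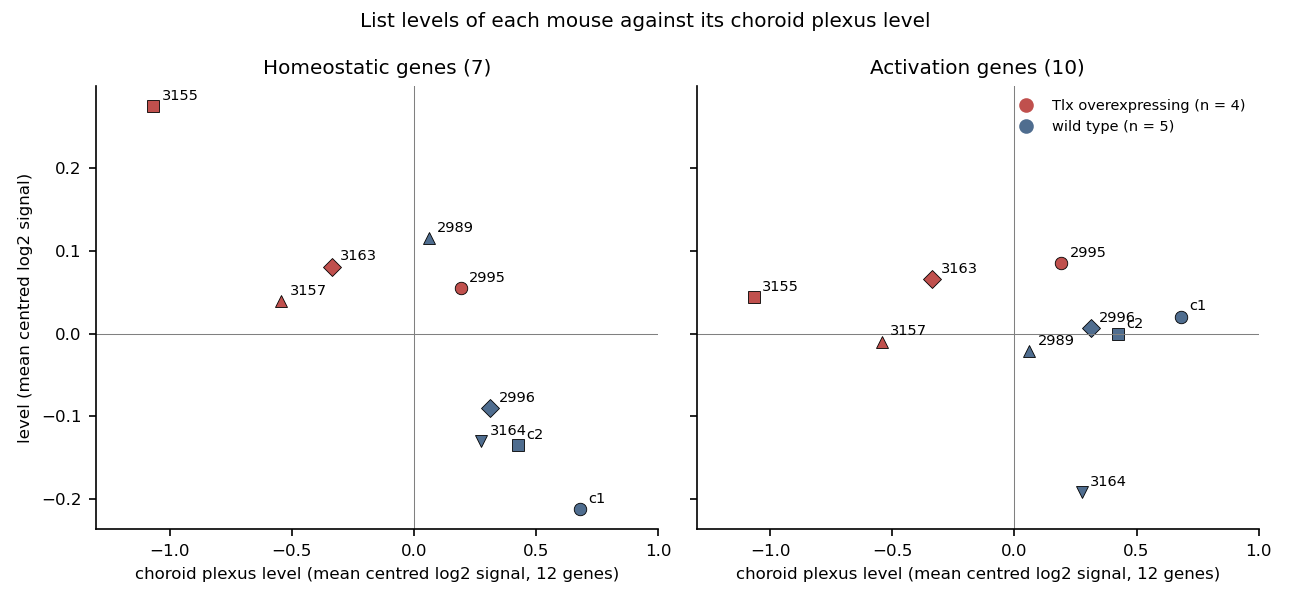
Homeostatic (left) and activation (right) level of each mouse against its choroid plexus level (horizontal axis), all as mean centred log2 signal over 7, 10 and 12 genes. Homeostatic levels lie highest in mouse 3155 (0.27, choroid plexus level -1.07) and lowest in c1 (-0.21, choroid plexus level 0.68), while those 2 mice have activation levels of 0.044 and 0.021. Among the other Tlx overexpressing mice the homeostatic level does not fall steadily with the choroid plexus level.

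Other cells that could carry these transcripts were looked for by their markers. For border macrophages of meninges and vessels, 4 of 9 markers passed the filter (Mrc1, F13a1, Stab1 and Cbr2), while Cd163, Lyve1, Pf4, Ms4a7 and Clec10a stayed below it. F13a1, the factor XIII A chain of macrophages and platelets, read 5.32, 5.34, 5.17 and 4.99 in the Tlx overexpressing and 4.66, 4.40, 4.75, 4.82 and 4.47 in the wild type mice. It rose by 0.58 (SE 0.11, adjusted p = 0.031), a call lost in 10 of 19 alternatives, among them the block (0.62, adjusted p = 0.068). Of all tested probes 0.539% passed upward, and for 3.24% the groups did not overlap in this direction, as here. The other markers did not pass: Mrc1 differed by 0.17 (adjusted p = 0.54), Cbr2 by 0.13 (0.57) and Stab1 by -0.064 (0.82). Further Stab1 probes gave 0.22 and 0.27. The sum of the 4 markers was 24.6 to 25.9 against 23.9 to 24.9.

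Monocyte markers Ccr2, Plac8, Chil3 and Treml4 were below the filter, and the 3 that passed, Ly6c1, Vcan and Fn1, are also made by vessels and glia; their sum was 19.04 to 20.1 against 18.3 to 19.4. Of 10 neutrophil markers only S100a8 and Mmp9 passed, with a sum of 9.35 to 10.9 against 8.81 to 11.1, and S100a9, Ngp, Camp and Ltf did not. Of 9 lymphocyte markers with a probe only Cd2 passed, in 4 mice, with signals of 4.30 to 4.65 and 4.42 to 4.59, and of 6 dendritic cell markers Zbtb46 and Itgae did, with sums of 9.28 to 9.87 and 9.01 to 9.44. Hba-a1, the alpha globin of red cells, was bright in all 9 mice (12.4 and 12.1 in mean), and the sum of the 3 tested red cell genes was 22 to 23.3 against 21.6 to 23. What these cells add to the 30 genes was not tested.

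Further microglial genes outside the 37 were listed for context. Of 13 further homeostatic genes tested, 10 were positive (median change 0.12), against 50.9% of all tested probes. The groups did not overlap for 2, both upward, against 3.24% of all tested probes. Past the threshold was 1 gene, against 0.941% of all tested probes. This was Fcrls, an Fc receptor-like protein of mouse microglia, with 8.89, 9.64, 9.27 and 9.28 against 8.42, 8.43, 8.66, 8.64 and 8.78. Every Tlx overexpressing mouse was above every wild type mouse, and the difference was 0.69 (SE 0.13, adjusted p = 0.035), with 2 further probes at 0.56 and 0.45 that did not pass. The call was lost in 12 of 20 alternatives, which included the omission of any single mouse other than 2995 or 3164, the block (0.44, adjusted p = 0.20) and the choroid plexus covariate (0.24, adjusted p = 0.85). C1qb, a chain of the complement component C1q whose groups did not overlap either (0.32, adjusted p = 0.14), and Sall1, a transcription factor of microglia that progenitors also express (0.33, adjusted p = 0.12), did not pass.

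Of 17 further activation genes tested, 7 were positive and 10 negative (median -0.072), and 1 passed, against 0.941% of all tested probes. The groups did not overlap for 1 gene upward and 1 downward, against 3.24% and 3.04% of all tested probes. Ccl4, a chemokine of activated microglia, rose by 1.04 (SE 0.13, adjusted p = 0.0052), with 5.88, 6.16, 6.51 and 6.52 against 5.17, 5.32, 5.32, 5.35 and 4.97. Every Tlx overexpressing mouse lay above every wild type mouse, and the call was lost in 1 of 20 alternatives, the choroid plexus covariate (0.89, adjusted p = 0.35). Gpnmb, a glycoprotein of lipid-laden phagocytes, went the other way, with 5.61, 5.28, 4.98 and 5.19 against 5.91, 5.77, 5.89, 5.63 and 5.73. Every Tlx overexpressing mouse lay below every wild type mouse, but the difference did not pass (-0.52, adjusted p = 0.057). Clec7a (0.31, adjusted p = 0.17) and Ccl3 (0.46, adjusted p = 0.099) did not pass either, and Il1b, Tnf, Itgax and Cybb were below the filter.

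Signalling partners showed little. None of 10 tested ligands and receptors passed (median 0.042): Csf1 differed by 0.010, Il34 by 0.12, the fractalkine gene Cx3cl1 by -0.11, the TGF-beta gene Tgfb1 by 0.17, its receptor gene Tgfbr1 by 0.15 and Cd200, a neuronal ligand that calms microglia, by 0.21, with adjusted p from 0.45 to 0.97. All 8 tested genes of immunoreceptor signalling were positive (median 0.07) and none passed. Nckap1l, a subunit of the WAVE complex of blood cells, came nearest (0.18, adjusted p = 0.23), followed by the kinase genes Btk (0.19, adjusted p = 0.28) and Pik3cg (0.18, adjusted p = 0.44). Syk, the kinase next to Tyrobp and Fcer1g, was below the filter.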

How the data were processed

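The members and the gene lists were chosen with earlier results of these data known. Biotinylated cRNA of SVZ tissue was hybridised to Illumina mouse bead arrays, per the labels' protocols. Both tables that the authors deposited (2) hold linear probe intensity. The one called non-normalized held intensities with equal quartiles in every array, hence already quantile-normalized, and a detection p-value per probe, per the file headers. The other deposited table held intensities with the same probe ranks and different medians, and was the starting point. Scanner software and background treatment are not given in the sources used here, so detection p-values were taken as shares of negative controls.

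From these deposited values, limma 3.58.1 (R 4.3.3) made log2 signals by the neqc method: normexp background correction, in which the detection p stands in for the control probes (offset 16), and then quantile normalization. Mouse c1 enters as the mean of its 2 arrays, as 1 mouse, and counts as detected where both arrays detected the probe. Probes with a detection p under 0.05 in at least 4 of 9 mice were kept (20401). Names came from the platform annotation, updated through RefSeq (34807 of 45281 probes); probes with several genes stayed unnamed. A gene is given by its brightest kept probe, with the others where they differ; the 30 tested genes had 39 kept probes. Genotypes were compared by a two-sided moderated test (lmFit and eBayes), and p-values were adjusted by Benjamini-Hochberg across every kept probe; every adjusted p is from this model or, where the text names a block, a covariate, array weights or a mouse left out, from the same model so altered. The unaltered model was tested on simulated data with known changes added. These were larger than the median change of the 30 genes, and whether smaller changes would be called was not simulated. Levels of lists were given without a test.

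Genes given mouse by mouse were those past the threshold or, where none passed, the 4 homeostatic, 5 activation and 6 shared genes with the smallest p, and the markers Aif1, Itgam, Cd68, Tmem119, P2ry12, Trem2 and Cst7, of which Cd68 had no probe of that name. From the further lists the genes that passed, or up to 3 with the smallest p, were named. Gpnmb, S100a8, Dlx1, Foxj1, Clec7a, Ccl3, C1qb, Sall1, Csf1, Il34, Cx3cl1 and genes named without a value were added after their values were seen.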

Additional observations from a re-analysis of the deposited data

Results flagged for a closer look

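Of 66 sets of values looked at (33 quantities in each genotype), 5 had 1 mouse whose distance to its neighbour was large for the range of its group; chance gives about 1 in 20. Wild type mouse 2989 read 6.81 for Trem2, where the next wild type mouse read 6.60. Wild type mouse c1 read 6.63 for Tlr2, where the next read 6.25. Wild type mouse 3164 read 10.47 for Lgmn against 10.61 for the next, and its activation level was -0.19 against -0.021 for the next. Tlx overexpressing mouse 3157 read 5.15 for Hcls1, where the next read 4.91.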

How the results depend on the processing

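The count of 0 called genes held in 18 of 20 alternatives; it was 1 with array weights and 0 to 2 on leaving out 1 mouse. Leaving out 1 mouse moved the difference in homeostatic level between 0.15 and 0.25, in activation level between 0.045 and 0.10 and in their contrast between 0.064 and 0.17. The activation difference was 0.045 without 3164, and the contrast was 0.064 without 3155, 0.074 without c1 and 0.075 without 3157; without both c1 and c2 it was 0.032. With the choroid plexus covariate the homeostatic difference was 0.022 and the contrast -0.11. Among mice 2995, 2989 and 2996 they were 0.043 and -0.050. The activation difference was 0.16 with the range of mouse names as a block and 0.22 among mice 3155 to 3164. The cause was not tested. Of the 30 genes 19 kept their sign in every alternative run; the others, with main changes between -0.19 and 0.15, changed it in at least 1. Over all tested probes the number called ran from 6 to 758 against 192: 758 without 2995, 71 without 3155, 26 without 3157, 39 without 3163, 63 without c1, 84 without 2996, 123 without 3164, 51 with the block, 6 with the covariate, 609 with array weights, 56 with no filter, 122 with an offset of 50 and 100 without mice c1 and c2, an alternative chosen after seeing the data. No paired analysis was possible because the labels give the mice no replicate numbers shared between the genotypes. Dim probes limit what could be seen. Both means were under 5 for 6 of the 30 genes: Fcgr1, Ctss, Itgam, Spi1, Rac2 and Hcls1.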
